A study of Mus musculus with 13 samples.

Results

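The genes of cholesterol and fatty acid synthesis were followed across 13 mouse NUT carcinoma (mNC) tumors profiled by bulk RNA sequencing. The group was a fixed list of 28 genes, chosen by name with earlier results of these data known. It held 16 enzymes that lead from 3-hydroxy-3-methylglutaryl-CoA to cholesterol, 3 regulators of the sterol response and 9 genes that make, elongate, desaturate or activate fatty acids. All 28 were found among the 55332 genes with values. NUT carcinoma is a squamous cancer driven by a fusion gene that includes NUTM1. In every tumor the NCT allele had been rearranged by Cre to make the driving fusion, and in KO tumors the same Cre deleted floxed Sox2, which encodes a transcription factor of squamous and stem cells.

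The 13 tumors fell into 4 groups. Oral Sox2 WT tumors (n = 4) carried KRT14-Cre; NCT+/-, and oral Sox2 KO tumors (n = 2) are labelled KRT4Cre; NCT+/-; Sox2fl/fl, although the study describes only KRT14-Cre for the oral model. Pancreatic Sox2 WT tumors (n = 4) carried Pdx1-Cre; NCT+/-, and pancreatic Sox2 KO tumors (n = 3) carried Pdx1-Cre; NCT+/-; Sox2fl; fl. KRT14-Cre acts in basal cells of surface epithelia and Pdx1-Cre in the pancreatic lineage, so tissue and Cre driver cannot be told apart. The labels give no age and do not say which tumors shared an animal or a day of preparation, so p-values measure only the spread between these tumors. Each was bulk tissue, in which fewer cells of a type and less RNA per cell cannot be told apart.

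Sterol synthesis starts with the mevalonate pathway, which builds isoprenoid units from acetyl-CoA, joins them into squalene and closes that chain into lanosterol. A further series of enzymes trims and reduces lanosterol to cholesterol. When membranes run short of sterol, the SREBP transcription factors leave the endoplasmic reticulum, where INSIG proteins hold them, and switch on most of these enzymes. SREBPs also act on fatty acid synthesis, in which ATP citrate lyase supplies acetyl-CoA, acetyl-CoA carboxylase makes malonyl-CoA and fatty acid synthase builds palmitate. Growing tumor cells draw on both pathways for membranes.

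Levels are given as CPM, which bring every tumor to a common total count scaled by TMM factors, and comparisons as log2 fold changes from edgeR's quasi-likelihood test with Benjamini-Hochberg adjustment over all genes tested, a gene passing at an adjusted p under 0.05. Total estimated counts were 29394258 to 40420228 in oral WT, 11735315 and 20432164 in oral KO, 40964533 to 46134830 in pancreatic WT and 89562790 to 120482829 in pancreatic KO tumors, and no member fell below 96 counts in any tumor. These totals did not overlap between genotypes in either tissue, being lower in oral KO and higher in pancreatic KO than in WT tumors. Genotype and depth of sequencing therefore cannot be told apart. Sox2 had 410 to 1487 counts in the WT tumors and 0 to 2 in the KO tumors. Oral KO tumor 1 stood apart, with 59.5% of its counts on protein-coding genes and 16.6% on the genes of the 7SL RNA (Rn7s), against 84.5% to 91.7% and 1.97% to 6.0% in the other 12 tumors.

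All 28 genes were expressed in every tumor. Per kilobase of the longest transcript, Scd2, a stearoyl-CoA desaturase that places the first double bond in a saturated fatty acid, had the highest mean level over the 13 tumors at 153 CPM per kb. Hmgcs1, which makes 3-hydroxy-3-methylglutaryl-CoA, followed at 69.3, and Srebf2, the SREBP best known for sterol genes, at 53.0 CPM per kb. The lowest levels were those of Mvd at 9.50, Elovl6 at 9.82 and Hsd17b7 at 10.9 CPM per kb. The group mean per kb was highest in pancreatic WT tumors for 22 of the 28 genes. It was highest in oral WT tumors for Srebf1, Elovl6, Scd1, Fads1 and Fads2, and in oral KO tumors for Acaca.

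**Figure D1:**
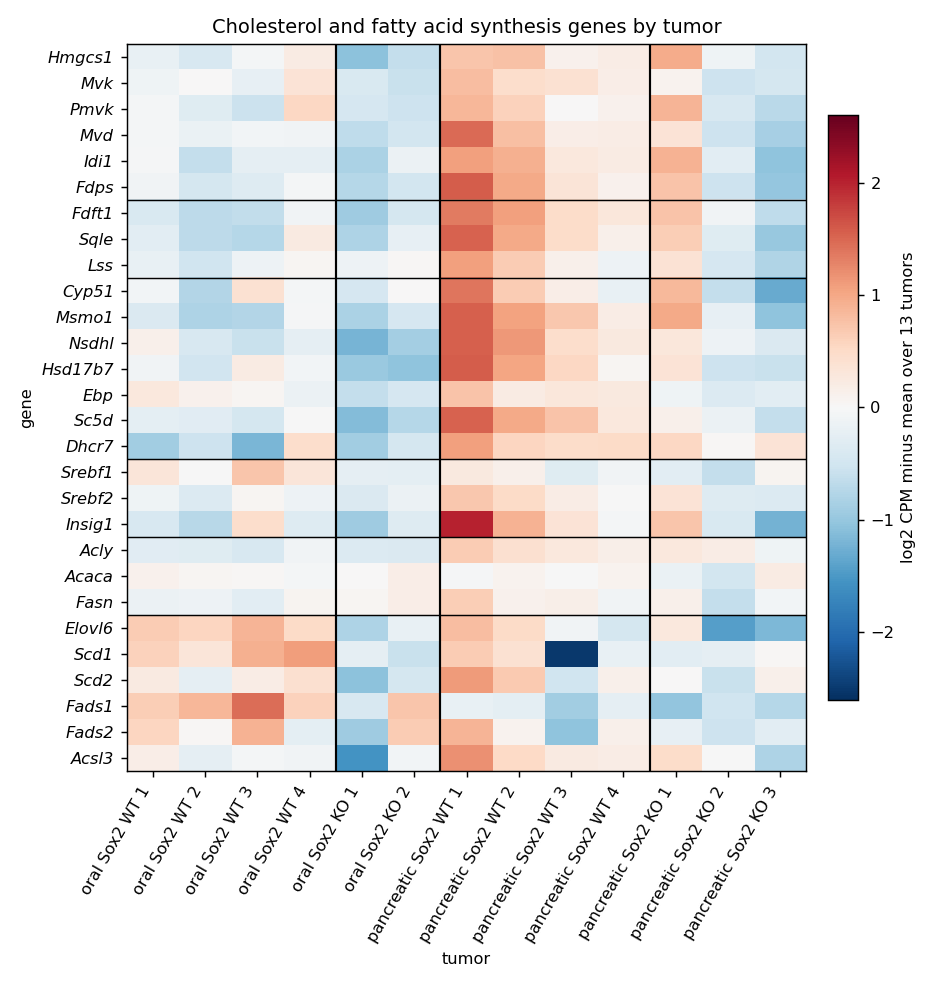
Each cell is the log2 CPM of 1 gene (vertical axis, in order along the pathway) in 1 tumor (horizontal axis) minus the gene's mean over the 13 tumors, and lines separate groups and steps. The 16 sterol enzymes at the top are high in pancreatic WT tumors 1 and 2 and pancreatic KO tumor 1, and Scd1 is lowest in pancreatic WT tumor 3.

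The upstream sequence of some of these genes is shown because the sterol enzymes varied together over the tumors, and SREBPs bind beside the CCAAT-box factor NF-Y at many sterol genes. RefSeq windows (GRCm38.p6) of 250 bases before and 50 bases after each start site held 27 windows for 22 of the 28 genes. The 250 upstream bases follow for the 5 sterol enzymes that passed between tissues in WT tumors and have a window, with 1 of 3 windows for Dhcr7, and for Elovl6, which differed between oral KO and WT tumors, written 5′ to 3′ on the gene's strand with CCAAT, or ATTGG where the motif lies on the other strand, in capitals.
Msmo1 (chr8:64733579-64733828, minus strand): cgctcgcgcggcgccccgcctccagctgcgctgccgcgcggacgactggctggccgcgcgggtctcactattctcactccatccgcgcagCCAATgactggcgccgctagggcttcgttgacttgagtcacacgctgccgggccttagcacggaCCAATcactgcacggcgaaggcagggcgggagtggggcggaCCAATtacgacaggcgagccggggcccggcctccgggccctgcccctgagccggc
Nsdhl (chrX:72918271-72918520, plus strand): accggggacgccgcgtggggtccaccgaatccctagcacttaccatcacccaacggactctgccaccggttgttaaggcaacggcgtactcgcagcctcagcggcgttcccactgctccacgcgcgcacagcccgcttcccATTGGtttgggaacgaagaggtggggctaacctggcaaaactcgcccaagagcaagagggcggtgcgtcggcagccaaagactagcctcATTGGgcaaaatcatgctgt
Hsd17b7 (chr1:169969206-169969455, minus strand): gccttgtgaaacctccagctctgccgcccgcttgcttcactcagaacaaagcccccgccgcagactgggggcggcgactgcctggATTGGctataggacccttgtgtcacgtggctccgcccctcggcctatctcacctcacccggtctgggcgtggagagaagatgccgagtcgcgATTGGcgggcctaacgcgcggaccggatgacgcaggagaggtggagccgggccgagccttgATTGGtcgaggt
Sc5d (chr9:42264301-42264550, minus strand): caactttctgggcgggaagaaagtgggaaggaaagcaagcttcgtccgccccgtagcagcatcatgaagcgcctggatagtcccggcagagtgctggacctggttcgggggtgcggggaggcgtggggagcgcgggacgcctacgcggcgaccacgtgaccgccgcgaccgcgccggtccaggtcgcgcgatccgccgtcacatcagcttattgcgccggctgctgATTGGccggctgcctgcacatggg
Dhcr7 (chr7:143822917-143823166, plus strand): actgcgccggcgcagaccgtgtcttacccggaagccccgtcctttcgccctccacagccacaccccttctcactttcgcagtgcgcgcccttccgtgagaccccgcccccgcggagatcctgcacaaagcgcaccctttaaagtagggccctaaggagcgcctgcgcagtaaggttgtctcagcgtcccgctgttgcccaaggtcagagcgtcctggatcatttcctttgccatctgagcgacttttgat
Elovl6 (chr3:129532136-129532385, plus strand): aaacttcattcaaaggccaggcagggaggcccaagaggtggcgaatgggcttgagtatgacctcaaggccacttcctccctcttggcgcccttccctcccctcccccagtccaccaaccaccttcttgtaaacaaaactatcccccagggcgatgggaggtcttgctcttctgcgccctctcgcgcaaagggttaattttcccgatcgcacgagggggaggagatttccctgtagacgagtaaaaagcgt
Upstream of the start site, Msmo1 and Hsd17b7 each had 3 CCAAT motifs, Nsdhl had 2 and Sc5d had 1. Elovl6 had none, nor had the Dhcr7 window shown, while of the other 2 Dhcr7 windows 1 held the motif. Over both strands of the full 300-base windows, CCAAT was found in 20 of the 27 (74.1%), against 37.4% of 32851 mouse windows. The GC box GGGCGG was found in 20 of the 27 windows as well, against 35.7% of all windows. The E-box CACGTG was in 4 windows, against 7.15% of all, and the sterol regulatory element core TCACNCCAC in 1, that of Hmgcs1, against 1.24% of all. Such matches are descriptions of letters in these windows. GENCODE places the first base of some of these genes elsewhere than RefSeq does.

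Of the 16 sterol enzymes, 7 were lower in oral than in pancreatic WT tumors. Of the 28 genes, 8 were lower in the oral tumors and 1 was higher, against 11.0% of all 25836 genes tested lower and 11.3% higher. All 16 sterol enzymes had log2 fold changes below 0, with a median of -0.96. The median of the 28 genes was -0.65 and that of all genes tested 0.00. The groups did not overlap, with the oral tumors lower, for 10 of the 28 genes, against 12.8% of all genes.

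In the mevalonate pathway no gene passed the test. The largest difference was that of Fdps, farnesyl diphosphate synthase, with 38.0 to 50.4 CPM in the oral and 56.6 to 155 CPM in the pancreatic WT tumors (log2 fold change -1.09, SE 0.38, adjusted p = 0.0599). Fdps, Idi1 and Mvd kept the groups apart, whereas Hmgcs1, Mvk and Pmvk overlapped.

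Both enzymes that lead to squalene epoxide differed. Fdft1, squalene synthase, was 40.1, 33.2, 34.2 and 49.6 CPM in the oral and 135, 110.4, 74.1 and 65.5 CPM in the pancreatic WT tumors. It was 2.45-fold lower in oral tumors (log2 fold change -1.29, SE 0.31, adjusted p = 0.0109). Every oral tumor lay below every pancreatic tumor. Sqle, squalene epoxidase, was 79.4, 59.6, 57.7 and 113 CPM in the oral and 278, 189.6, 133 and 104 CPM in the pancreatic WT tumors (log2 fold change -1.19, SE 0.39, adjusted p = 0.0465). Its groups overlapped through oral tumor 4, and its adjusted p was under 0.05 in 6 of 14 alternatives. Lss, which closes the chain into lanosterol, had a log2 fold change of -0.69 (adjusted p = 0.102).

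Of the 7 enzymes between lanosterol and cholesterol, 5 were lower in the oral WT tumors. Msmo1, the methylsterol oxidase that starts removal of the methyl groups at carbon 4 (chr8:64718139-64733792), was 59.0, 44.1, 45.1 and 75.1 CPM in the oral and 225, 158, 125 and 87.7 CPM in the pancreatic WT tumors. With a log2 fold change of -1.41 (SE 0.40, adjusted p = 0.0273) it had the largest difference of the 28 genes, and its groups did not overlap. Nsdhl, the dehydrogenase of the same demethylation (chrX:72918557-72958514), was 51.1, 35.2, 31.4 and 40.0 CPM in the oral and 137, 102, 63.9 and 55.5 CPM in the pancreatic WT tumors. It was 2.27-fold lower in the oral tumors (log2 fold change -1.18, SE 0.28, adjusted p = 0.00971), again without overlap. Hsd17b7, the ketoreductase of that step (chr1:169949535-169969241), had a log2 fold change of -0.99 (SE 0.31, adjusted p = 0.0371) with overlapping groups.

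Sc5d, the lathosterol desaturase (chr9:42251595-42264256), was 51.6, 50.4, 44.7 and 61.1 CPM in the oral and 179, 122, 103 and 75.0 CPM in the pancreatic WT tumors. It was 2.30-fold lower in the oral tumors (log2 fold change -1.20, SE 0.24, adjusted p = 0.00462), and the groups did not overlap. Dhcr7, which reduces the last double bond of the ring system on one route to cholesterol, was 19.9, 25.5, 16.1 and 51.0 CPM in the oral and 77.7, 54.6, 51.6 and 52.0 CPM in the pancreatic WT tumors (log2 fold change -1.07, SE 0.31, adjusted p = 0.0297). The groups did not overlap, but oral tumor 4 came within 1 CPM of the lowest pancreatic tumor. Cyp51, the lanosterol demethylase, and Ebp, the sterol isomerase, had log2 fold changes of -0.70 and -0.31 and did not pass (adjusted p = 0.308 and 0.148).

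The regulators did not pass. Srebf2 had a log2 fold change of -0.50 (adjusted p = 0.0837) and Insig1, which retains SREBPs in the endoplasmic reticulum and is itself a target of theirs, one of -1.20 (SE 0.49, adjusted p = 0.105). Insig1 was 120.1 CPM in pancreatic WT tumor 1 and 28.9 to 56.1 CPM in the other 3. Srebf1, the SREBP best known for fatty acid genes, lay on the other side of 0, at 0.34 (adjusted p = 0.212).

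The 9 fatty acid genes had a median log2 fold change of -0.01, with 1 gene lower, 1 higher and 7 that did not pass. Acly, ATP citrate lyase, was 125, 123, 115 and 144 CPM in the oral and 244, 207, 187 and 171 CPM in the pancreatic WT tumors, a 1.59-fold lower level in the oral tumors without overlap (log2 fold change -0.67, SE 0.14, adjusted p = 0.00445). Acaca, acetyl-CoA carboxylase, was at 142 ± 6.43 CPM (SD, n = 4) in the oral and 143 ± 6.31 CPM (SD, n = 4) in the pancreatic WT tumors (log2 fold change -0.01, SE 0.13, adjusted p = 0.986). Fasn, fatty acid synthase, had a log2 fold change of -0.35 (adjusted p = 0.201). Fads1, the delta-5 desaturase of polyunsaturated fatty acids, was the gene with the opposite call: 52.3, 60.8, 91.2 and 50.4 CPM in the oral against 29.3, 27.95, 17.8 and 28.3 CPM in the pancreatic WT tumors, a 2.47-fold higher level without overlap (log2 fold change 1.30, SE 0.27, adjusted p = 0.00519).

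Fdft1, Nsdhl, Sc5d, Acly and Fads1 passed in all 14 alternatives, whereas Sqle, Msmo1, Hsd17b7 and Dhcr7 passed in 6, 8, 9 and 8 of them. The count of 8 lower genes was 4 when oral WT tumor 1 or 2 or pancreatic WT tumor 1 or 2 was left out, and was 5 without oral WT tumor 3. Without pancreatic WT tumor 1 the median of the 28 was -0.39. The 8 fibroblast markers, led by Col1a1 and Col3a1, summed to 8726 to 19141 CPM in oral WT and 1138 to 2230 CPM in pancreatic WT tumors, and all 8 were higher in the oral tumors. The 8 basal epithelial markers, led by Krt5 and Krt14, summed to 4854 to 9241 CPM and 10378 to 17623 CPM. Of these 8, 5 were lower and 1 was higher in the oral tumors. The 10 adipocyte markers summed to 112 to 593 CPM in oral WT and 1486 to 2975 CPM in pancreatic WT tumors, nearly all of it Fabp4, while 5 of the 10 were under 1 CPM in every tumor and Adipoq did not exceed 0.135 CPM. The part of these cell types in the tissue difference was not tested.

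**Figure D2:**
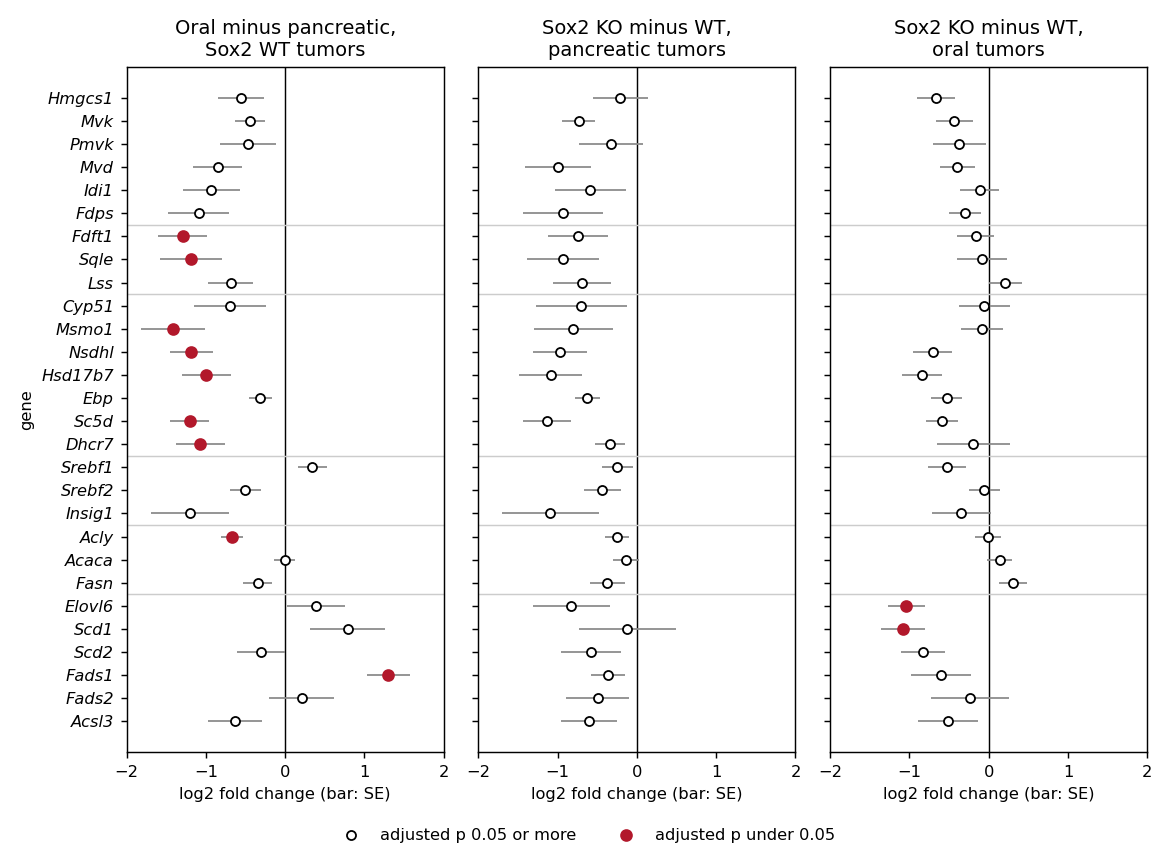
Points are log2 fold changes and bars standard errors from edgeR for the 28 genes (vertical axis) in 3 comparisons, with 4 oral and 4 pancreatic WT tumors on the left, 3 KO and 4 WT pancreatic tumors in the middle and 2 KO and 4 WT oral tumors on the right. Filled points passed at an adjusted p under 0.05: 9 on the left, 0 in the middle and 2 on the right, while all 28 points in the middle lie below 0.

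In pancreatic tumors the question was what changed when Sox2 was lost. No member passed the test (0 of 28), where 0.357% of the 24653 genes tested were lower and 0.349% higher in KO tumors. DESeq2 called more genes of every kind: 3 of the 28 were lower, and of all 24653 genes 1143 were lower and 568 higher. All 28 nevertheless had log2 fold changes below 0, as did 47.4% of all genes, and their median was -0.62 against 0.02 for all genes. At an unadjusted p under 0.05 there were 6 members, all sterol enzymes, against 15.9% of all genes. The KO tumors lay wholly below the WT tumors for 3 of the 28 (8.75% of all genes), and wholly above for none (6.80% of all genes).

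The smallest adjusted p among the 28 was that of Ebp, at 59.5, 41.0, 43.6 and 42.3 CPM in WT and 32.8, 27.9 and 29.2 CPM in KO tumors (log2 fold change -0.63, SE 0.16, adjusted p = 0.113). Every KO tumor was below every WT tumor. Sc5d was 179, 122, 103 and 75.0 CPM in WT and 67.3, 55.2 and 40.1 CPM in KO tumors, with the lowest log2 fold change of the 28 (-1.13, SE 0.31, adjusted p = 0.139). Mvk, mevalonate kinase, was 42.7, 33.7, 32.3 and 27.6 CPM in WT and 26.1, 17.0 and 17.9 CPM in KO tumors (log2 fold change -0.74, SE 0.20, adjusted p = 0.138). The groups did not overlap for Sc5d or for Mvk either. DESeq2 called these 3 genes, with adjusted p = 0.0150 for Ebp, 0.0145 for Sc5d and 0.0312 for Mvk.

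Other sterol enzymes had values as low but groups that overlapped. Msmo1 was 225, 158, 125 and 87.7 CPM in WT and 152, 66.2 and 37.0 CPM in KO tumors (log2 fold change -0.80, SE 0.50, adjusted p = 0.491), so that KO tumor 1 stood among the WT tumors. The same was seen for Cyp51, at 288, 174, 124 and 96.5 CPM in WT and 197, 72.0 and 44.8 CPM in KO tumors (log2 fold change -0.70, SE 0.57, adjusted p = 0.604). Hmgcs1 was highest of all 7 pancreatic tumors in KO tumor 1, at 433 CPM, against 206 and 159 CPM in the other KO tumors (log2 fold change -0.21, SE 0.35, adjusted p = 0.821). The median log2 fold change was -0.37 over the 9 fatty acid genes and -0.74 over the 16 sterol enzymes, a difference that was not tested. The fatty acid genes ran from Elovl6 at -0.83 to Scd1 at -0.12 (adjusted p = 0.460 and 0.947), with Acly and Fasn at -0.25 and -0.37.

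Single tumors weighed on the size of this difference. The median log2 fold change of the 28 genes was -0.39 without WT tumor 1 and -0.96 without KO tumor 1. Without KO tumor 1 none of the 28 reached an adjusted p under 0.05, and of all 23799 genes 25 were lower and 30 higher. Between 27 and 28 of the 28 genes were below 0 in each of the 13 alternatives. Pancreatic KO tumor 3 had acinar markers, led by Ctrb1 and Pnliprp1, that summed to 323 CPM, against at most 16.1 CPM in the other 12 tumors, and its part in the result was not tested.

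**Figure D3:**
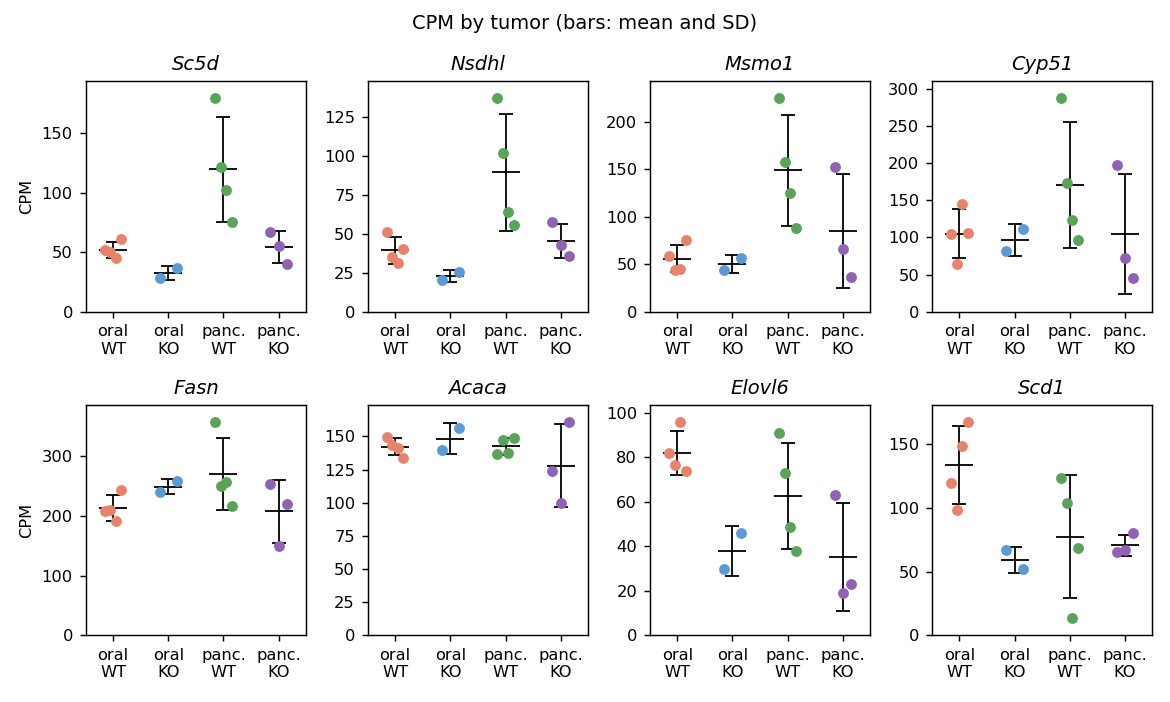
CPM (vertical axis, from 0) of 8 genes in each tumor, 1 point a tumor, by group (horizontal axis, with 4, 2, 4 and 3 tumors from left to right), with the mean as a horizontal line and the SD as a vertical bar. Sc5d, Nsdhl and Msmo1 are spread from 55.5 to 225 CPM among pancreatic WT tumors and from 31.4 to 75.1 CPM among oral WT tumors, whereas Acaca stays between 99.4 and 161 CPM in all 13.

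In oral tumors, an elongase and a desaturase of fatty acids were lower in Sox2 KO than in WT tumors. Of the 28 genes, these 2 were lower and 0 higher, where 4.58% of the 22342 genes tested were lower and 9.20% higher. This count was close to the background on the lower side and did not exceed it over both directions. Elovl6 (chr3:129532355-129638495), the elongase that takes palmitate to stearate, was 81.8, 76.5, 95.9 and 73.7 CPM in WT and 29.9 and 45.9 CPM in KO tumors. It was 2.06-fold lower in KO tumors (log2 fold change -1.04, SE 0.23, adjusted p = 0.0332). Scd1 (chr19:44394455-44407879), a stearoyl-CoA desaturase, was 119, 97.8, 149 and 167 CPM in WT and 66.6 and 52.2 CPM in KO tumors, 2.12-fold lower (log2 fold change -1.09, SE 0.28, adjusted p = 0.0440). For both genes the KO tumors lay below every WT tumor.

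The related desaturase Scd2 was 905, 656, 878 and 1024 CPM in WT and 368 and 560.0 CPM in KO tumors (log2 fold change -0.83, SE 0.28, adjusted p = 0.0829). Its groups did not overlap either. Fads1, Fads2 and Acsl3, which activates fatty acids with coenzyme A, were split between the KO tumors. Acsl3, for one, was 14.99 CPM in KO tumor 1 and 42.1 CPM in KO tumor 2, against 37.5 to 49.8 CPM in WT tumors. The enzymes that build palmitate were not lower: Fasn was 208, 209.9, 191 and 243 CPM in WT and 240.1 and 259 CPM in KO tumors (log2 fold change 0.31, SE 0.17, adjusted p = 0.242), and Acaca and Acly were at 0.14 and -0.01.

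No sterol enzyme passed edgeR's test in the fit of the oral tumors, and 15 of 16 had log2 fold changes below 0 (median -0.33). The lowest was Hsd17b7, at 41.3, 31.2, 50.8 and 41.8 CPM in WT and 22.4 and 21.4 CPM in KO tumors (log2 fold change -0.84, SE 0.25, adjusted p = 0.0619). Hsd17b7 passed in 2 of 12 alternatives, DESeq2 among them (adjusted p = 0.0256), and Ebp in 1, the fit of all 13 tumors (adjusted p = 0.0272). Nsdhl followed, at 20.2 and 25.5 CPM in KO tumors against 31.4 to 51.1 CPM in WT tumors (log2 fold change -0.71, SE 0.25, adjusted p = 0.0912). Msmo1, Cyp51, Sqle and Fdft1 were between -0.17 and -0.06, with overlapping groups. Lss was the exception above 0, at 0.21.

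Over the 28 genes, 25 had log2 fold changes below 0 (50.1% of all genes), with a median of -0.36 against -0.00 for all genes, and 8 had an unadjusted p under 0.05 (35.4% of all genes). The KO tumors lay wholly below the WT tumors for 12 of the 28, a pattern of 25.5% of all genes in this comparison, and wholly above for none, a pattern of 22.4% of all genes. With protein-coding genes alone in the fit, no member passed (adjusted p = 0.0877 for Elovl6 and 0.107 for Scd1), 18 of 28 were below 0 and the median was -0.16. Elovl6 passed in 4 and Scd1 in 3 of 12 alternatives, with log2 fold changes of -1.34 to -0.78 and -1.30 to -0.78. Without oral KO tumor 1, 17 of the 28 genes were below 0, the median was -0.13, and Elovl6 and Scd1 were at -0.78 and -1.30 (adjusted p = 0.126 and 0.100). Without KO tumor 2 they were at -1.34 and -0.89 (adjusted p = 0.0789 and 0.194). Leaving out WT tumor 1, 2 or 3 also left both above an adjusted p of 0.05, and leaving out WT tumor 4 left Elovl6 alone under it.

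Markers of other tissue differed in part between the oral groups. The 12 skeletal muscle markers, led by Ttn and Neb, summed to 5630 and 3107 CPM in the oral KO tumors, against 15.6 to 28.9 CPM in 3 oral WT tumors, 576 CPM in the fourth and at most 12.5 CPM in the pancreatic tumors. Of the 12, 1 passed the test in oral KO against WT tumors. The sebaceous gland markers, led by Krt79 and Cidea, summed to 69.5 and 78.1 CPM in the oral KO and 79.7 to 512 CPM in the oral WT tumors, of which Krt79 made up most. Every sebaceous marker but Krt79 overlapped between oral KO and WT tumors. None of these 10 passed, and 3 were under 1 CPM in every tumor. Of the 8 fibroblast markers 2 were lower in oral KO tumors, and of the 8 basal epithelial markers 1 was. The part of these tissues in the oral differences was not tested.

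Whether loss of Sox2 acted differently in the 2 tissues was tested as the difference of the KO effects. No member passed (0 of 28), where 7.71% of all genes were higher and 7.62% lower in this contrast, and none reached an unadjusted p under 0.05. With DESeq2 the counts were 0 as well. The smallest adjusted p was that of Fasn, 0.168, at a difference of 0.61 (SE 0.30). Elovl6 and Scd1, called in the oral tumors alone, differed by -0.28 (SE 0.60) and -1.04 (SE 0.77) between tissues. Their lower level in KO tumors was not shown to be particular to oral tumors.

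Among KO tumors, 2 members were lower in oral than in pancreatic tumors and 1 was higher, where 18.0% of all genes were lower and 19.9% higher. Hmgcs1 was 106 and 145 CPM in the oral and 433, 206 and 159 CPM in the pancreatic KO tumors (log2 fold change -1.08, SE 0.38, adjusted p = 0.0424). Acly was 120.3 and 119 CPM against 188, 177 and 142 CPM (log2 fold change -0.50, SE 0.18, adjusted p = 0.0418). Fads1 was again higher, at 25.0 and 55.2 CPM against 16.4, 23.4 and 19.9 CPM (log2 fold change 1.02, SE 0.34, adjusted p = 0.0336). Oral tumors lay wholly below the pancreatic tumors for 7 of the 28, against 29.8% of all genes. Without pancreatic KO tumor 1 the median of the 28 genes went from -0.46 to 0.04 and none of the 3 calls held. In this comparison all 12 skeletal muscle markers and 5 of the 8 fibroblast markers were higher, and 5 of the 8 basal epithelial markers lower, in the oral tumors, and their part in these calls was not tested. This comparison shares its KO tumors with those above, and its values are not independent of them.

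The 28 genes varied more among pancreatic than among oral WT tumors, unlike most genes. The SD of log2 CPM among WT tumors had a median of 0.51 over the 28 genes in the pancreas and 0.27 among oral tumors, and was larger in the pancreas for 23 of the 28 (82.1%). Over all genes past the count filter the medians were 0.39 and 0.43, and the SD was larger in the pancreas for 40.2%, and for 31.3% of the 8600 genes at least as high as the lowest member. The highest pancreatic WT tumor exceeded the lowest by a median of 2.34-fold over the 16 sterol enzymes, against 1.52-fold among oral WT tumors. Scd1 had the widest range, 8.97-fold, from 13.7 CPM in pancreatic WT tumor 3 to 123 CPM in tumor 1.

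Pancreatic WT tumor 1 was the highest of its group for 15 of the 16 sterol enzymes and for 26 of the 28 genes, and for 28.5% of all genes. Pancreatic KO tumor 1 was the highest of its group for 16 of 16 and for 23 of the 28, against 37.0% of all genes. Pancreatic WT tumor 4 and KO tumor 3 were the lowest for 11 and 13 of the 16. The mean of the sterol enzymes, as log2 CPM minus each gene's mean over the 13 tumors, was 1.24, 0.80, 0.36 and 0.16 in pancreatic WT tumors 1 to 4 and 0.55, -0.33 and -0.68 in KO tumors 1 to 3. In the oral tumors it was -0.17, -0.44, -0.33 and 0.05 in WT and -0.75 and -0.47 in KO tumors. The enzymes share a library in each tumor, so a tumor's rank over 16 genes is 1 observation of that tumor.

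Acly, Acaca and Fasn moved over a narrower range, from -0.30 in pancreatic KO tumor 2 to 0.42 in pancreatic WT tumor 1. Elovl6, Scd1, Scd2, Fads1, Fads2 and Acsl3 gave the tumors another order: pancreatic WT tumor 3, above 0 for the sterol enzymes at 0.36, was at -0.81 for these 6 genes, next to oral KO tumor 1 at -0.83. All 4 oral WT tumors were above 0 for the 6 genes, at 0.22 to 0.71. Proliferation markers, led by Mki67 and Top2a, summed to 612 to 1352 CPM over the 13 tumors, and leukocyte markers, led by S100a8 and S100a9, to 111 to 572 CPM.

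**Figure D4:**
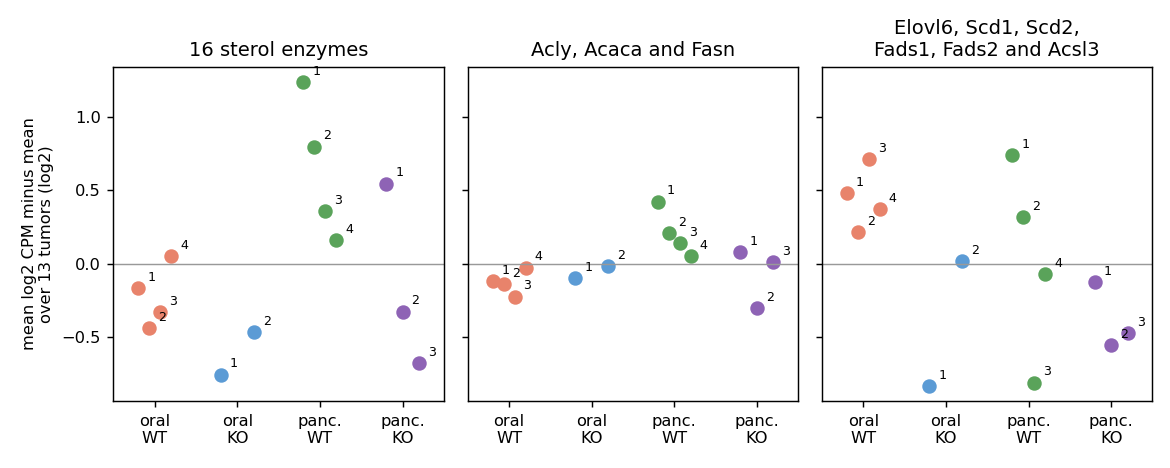
Each point is 1 tumor, numbered within its group (horizontal axis: 4 groups), and the vertical axis is the mean over the named genes of log2 CPM minus each gene's mean over the 13 tumors. The sterol enzymes run from 1.24 in pancreatic WT tumor 1 to -0.75 in oral KO tumor 1, Acly, Acaca and Fasn stay between -0.30 and 0.42, and the third set has pancreatic WT tumor 3 at -0.81.

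A further 51 genes of these pathways were read in the same fits. All were tested but some of the 18 that elongate, desaturate or activate fatty acids. Of those 18, 15 reached the count filter in the fit of the oral tumors and 16 in the other fits. In oral KO against WT tumors 5 of the 51 passed, 4 lower and 1 higher. Over all genes tested in this comparison, 4.58% were lower and 9.20% higher. Both directions together did not exceed the background, although the 4 lower genes were above the lower share. Of the 4, 3 work with Elovl6 in the elongation cycle, which adds carbons to a fatty acid in a condensation, a reduction, a dehydration and a second reduction. These 3 were the only ones to pass of the 15 tested genes that elongate, desaturate or activate fatty acids. Of those 15, 12 had log2 fold changes below 0 and 3 above. Hsd17b12, the first reductase, was 90.7, 78.6, 122 and 82.1 CPM in WT and 46.3 and 46.9 CPM in KO tumors (log2 fold change -0.93, SE 0.24, adjusted p = 0.0458). Hacd2, a dehydratase, was 57.5, 59.1, 61.8 and 54.1 CPM in WT and 26.7 and 29.7 CPM in KO tumors (log2 fold change -0.97, SE 0.17, adjusted p = 0.0233). Tecr, the second reductase, was 201, 161, 136 and 167 CPM in WT and 64.4 and 79.4 CPM in KO tumors (log2 fold change -1.13, SE 0.21, adjusted p = 0.0242). For all 3, both KO tumors lay below the 4 WT tumors, and each passed in 6 of 12 alternatives with a log2 fold change of -0.73 or lower in all of them.

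The fourth gene, Mid1ip1, which promotes the polymerization of acetyl-CoA carboxylase, was at -1.29 (SE 0.30, adjusted p = 0.0355). Mlxipl, which encodes the carbohydrate-responsive factor ChREBP, was higher in oral KO tumors, at 5.76 and 9.13 CPM against 0.950 to 3.03 CPM in WT tumors (log2 fold change 1.97, SE 0.52, adjusted p = 0.0465). In pancreatic KO against WT tumors 1 of the 51 passed, against 0.357% of all genes lower and 0.349% higher. Acsl1, which activates long-chain fatty acids, was 118, 92.0, 110.0 and 80.2 CPM in WT and 48.1, 33.2 and 48.4 CPM in KO tumors, 2.29-fold lower and without overlap (log2 fold change -1.20, SE 0.19, adjusted p = 0.0396). It passed in 5 of 13 alternatives.

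The KO effect differed between tissues for 4 of the 51 genes, all lower in this contrast, against 7.62% of all genes lower and 7.71% higher, so the count was close to the background. Hacd2, at 66.5 ± 2.99 CPM (SD, n = 4) in pancreatic WT and 63.3 ± 1.18 CPM (SD, n = 3) in pancreatic KO tumors, fell by 0.97 more on the log2 scale in the oral tumors (SE 0.15, adjusted p = 0.00713), and passed in 18 of 18 alternatives. Tecr was at -0.94 (SE 0.24, adjusted p = 0.0266), and passed in 14 of 18. Npc2, which carries cholesterol out of lysosomes, was at -0.78 (adjusted p = 0.0468) and Mbtps1, the site-1 protease that cleaves SREBPs, at -0.75 (adjusted p = 0.0474), and each passed in 6 of 18.

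Between oral and pancreatic tumors, 14 of the 51 passed in WT and 17 in KO tumors. Over all genes tested, 11.0% were lower and 11.3% higher in oral WT tumors and 18.0% lower and 19.9% higher in oral KO tumors. Both directions together were near the background. Most of the passing genes were lower in the oral tumors, above the lower share of all genes, and those higher were below the higher share. The smallest adjusted p in WT tumors was that of Acacb, the acetyl-CoA carboxylase tied to control of fatty acid oxidation, at 5.16 to 6.74 CPM in the oral and 0.524 to 1.60 CPM in the pancreatic tumors (log2 fold change 2.54, SE 0.36, adjusted p = 0.000664). Lower in oral WT tumors were the lysosomal cholesterol transporter Npc1 (log2 fold change -0.68, adjusted p = 0.00298), the elongase Elovl1 (-0.74, adjusted p = 0.00312), Fads3 (-1.23, adjusted p = 0.00515) and Acss2, which makes acetyl-CoA from acetate (-1.85, adjusted p = 0.00540). Among KO tumors, Hacd2 (-1.17), Tecr (-1.09), Elovl1 (-0.96) and Elovl5 (-0.97) were lower in the oral tumors and Acacb was higher (3.53). All 10 of these results held in every alternative run.

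Some of the 28 genes share sequence with related genes or pseudogenes, so their estimated counts could be split between copies. Of the 31-base words in their transcripts, 33.4% for Acaca, 27.9% for Fdps, 18.8% for Idi1, 14.3% for Fdft1, 8.14% for Scd1 and 6.81% for Scd2 occur in other genes, the last 2 mostly in Scd3. How far this moved their values was not tested.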

How the data were processed

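RNA from 13 mNC tumors had been depleted of ribosomal RNA and sequenced as stranded libraries. The authors trimmed reads with Trim Galore 0.6.10, checked them with FastQC 0.12.1 and quantified GENCODE transcripts of GRCm38 with kallisto 0.50.0. The deposited values are estimated counts per gene, summed over transcripts with tximport, and 27.3% were not whole. They were rounded to whole numbers.

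Symbols were taken from GENCODE M21, which lacked 944 of the 56085 identifiers, with at most 0.0276% of the counts of any tumor. Genes reaching 10 counts in 2 or more of the fitted tumors were normalised by TMM and tested with edgeR 4.0.16 (R 4.3.3, glmQLFit and glmQLFTest, two-sided), with p-values adjusted by Benjamini-Hochberg over all genes tested. KO was compared with WT in 1 fit a tissue, and tissues and the difference of KO effects in 1 fit of all 13. CPM were scaled by TMM over all 13 tumors, and SDs of log2 CPM used a prior count of 2. The code of the test was run on simulated counts with known changes, which is no check of its error rate on these tumors. DESeq2 1.42.0 and the other alternatives are described under the dependence on processing.

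The members, the other pathway genes and the marker lists were chosen with earlier results of these data known. All 28 members were named, Sox2, at most 5 further pathway genes a comparison by smallest adjusted p under 0.05, and the 2 most abundant markers of a cell type. Adipoq, a defining marker, was named after its values were seen. Promoters were read from RefSeq (GRCm38.p6), which lacked Fdps, Fdft1, Sqle, Scd1, Scd2 and Fads1 in the table used here. No replicates agreed within sampling noise.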

Additional observations from a re-analysis of the deposited data

Results flagged for a closer look

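In 3 of the 56 groups of 4 WT tumors looked at, 2 for each of the 28 genes, 1 tumor lay far from the others, where chance gives about 1 in 20. Ebp was 59.5 CPM in pancreatic WT tumor 1 and 41.0 to 43.6 CPM in the other 3, a gap of 0.834 of the range of log2 CPM. Dhcr7 was 77.7 CPM in the same tumor and 51.6 to 54.6 CPM in the other 3, a gap of 0.861 of the range. Fads1 was 17.8 CPM in pancreatic WT tumor 3 and 27.95 to 29.3 CPM in the other 3, a gap of 0.907 of the range.

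The KO effect differed between tissues, by the edgeR test of the difference itself, for the 4 of the 51 other pathway genes already named. Over all genes tested 7.62% were lower and 7.71% higher in this contrast, so the count was close to the background. The oral minus the pancreatic log2 fold change was -0.97 for Hacd2 (adjusted p = 0.00713), -0.94 for Tecr (adjusted p = 0.0266), -0.78 for Npc2 (adjusted p = 0.0468) and -0.75 for Mbtps1 (adjusted p = 0.0474). Npc2 was 106 to 146 CPM in oral WT, 75.9 and 62.6 CPM in oral KO, 113 to 129.9 CPM in pancreatic WT and 92.5 to 135 CPM in pancreatic KO tumors. Mbtps1 was 149 to 221 CPM in oral WT, 105 and 123 CPM in oral KO, 143 to 164 CPM in pancreatic WT and 138 to 174 CPM in pancreatic KO tumors. For both genes the oral KO tumors held the lowest values of the 13, while the pancreatic groups overlapped.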

How the results depend on the processing

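Each comparison was recomputed with DESeq2's size factors, without a count filter, with DESeq2, with protein-coding genes only, with another choice of tumors in the fit, with the tumor number as a block and without each tumor in turn. Over the genes named, the alternatives left 324 calls on the same side of the threshold, 129 no longer passed, 30 newly passed and 0 reversed. In oral tumors, the 2 members lower in KO became 4 with DESeq2, where 2401 of all 22342 genes were lower. In 1 fit of all 13 tumors 1 member was lower, where 3655 of all 25836 genes were. That member was Ebp, and neither Elovl6 nor Scd1 passed in that fit. The count was 0 with protein-coding genes only and 0 to 1 without single WT tumors. With protein-coding genes only, 19 genes were higher and 8 lower of 16352 in all, against 2056 and 1024 of 22342. In pancreatic tumors, the 0 members lower in KO became 3 with DESeq2, where 1143 of all 24653 genes were lower. Between tissues in WT tumors, the 8 lower became 4 to 9 without single tumors, where 2118 to 2871 of all genes were lower. Between tissues in KO tumors, the 2 lower became 4 with DESeq2, 0 with protein-coding genes only and 0 to 2 without single tumors, and the 1 higher became 0 without a count filter and in the fit of only these groups, and 0 to 1 without single tumors. The median there went from -0.57 to 0.0434 without single tumors, the latter without pancreatic KO tumor 1. The cause of these changes was not tested.

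The labels number the tumors within groups, and the deviations of same-numbered tumors correlated at -0.08 and -0.04 in oral and 0.32, -0.02 and -0.07 in pancreatic tumors, so the numbers were not taken to pair them. With the number as a block, 0 members were lower in oral KO tumors (median -0.27), where 22 of all 22342 genes were. In pancreatic KO tumors 10 were lower (median -0.79), where 499 of all 24653 genes were. Between tissues in WT tumors 7 were lower, where 2497 of all 25836 genes were. Between tissues in KO tumors 0 were higher, where 4098 of all 25836 genes were.

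There were 2 oral KO tumors, of which tumor 1 had the fewest counts of the 13, and this limits every comparison that uses them. A lone tumor left in a group was assumed to vary like the others.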
